A study of Mus musculus with 629 samples.

Results

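The interferon-stimulated genes described here were 40 genes taken by name from a count table of 53546 genes measured in single cells of mouse brain. The list was a list of names and its rule used no measured value, but genes and lists were chosen with earlier results of these data known. It was sorted by role into transcription factors (Irf1, Irf7, Irf9, Stat2), the Isg15 system (Isg15, Usp18, Herc6), sensing of RNA and DNA (Ifih1, Dhx58, Eif2ak2, Zbp1, Ifi204), the Ifit family (Ifit1, Ifit2, Ifit3, Ifit3b), the oligoadenylate synthetase family (Oas1a, Oas2, Oas3, Oasl1, Oasl2), membrane and virus-restriction effectors (Mx1, Rsad2, Cmpk2, Bst2, Ifitm3, Samd9l, Trim30a, Rtp4), GTPases of the interferon-gamma type (Igtp, Ifi47, Gbp2), the Schlafen family (Slfn2, Slfn5, Slfn8) and 5 others (Ifi27l2a, Ifi35, Ifi44, Xaf1, Parp14). All 40 had counts in macrophages and in microglia.

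Interferons are secreted proteins that bind receptors on the cell surface and activate the kinases Jak1 and Tyk2 (type I) or Jak1 and Jak2 (interferon gamma). Type I interferon activates a complex that holds Stat2 and Irf9 and binds the interferon-stimulated response element (ISRE) before its target genes, whereas interferon gamma acts mainly through another element, GAS. The proteins made in response sense foreign nucleic acid, stop viral translation, entry and release, or raise the response further. In the brain, microglia and perivascular macrophages carry the receptors and keep a low tonic level of many of these genes.

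The study asked what loss of Notch3, a receptor best known from the mural cells of vessels, does to brain macrophages and microglia. Cells of adult C57BL/6 mice were sorted singly into the wells of plates and sequenced over the whole transcript by SMART-seq2, and the labels gave each cell a Notch3 genotype (WT, Het or KO), a plate and a cell type. Per the labels' protocol, the mice were of the reporter line SM22-Cre;Rosa26-stop-tdTomato, in which Cre is driven by a promoter best known from smooth muscle. All genotypes shared that reporter, and the labels state neither the kind of Notch3 allele nor whether sorted macrophages carried the reporter's colour. There were 211 WT, 70 Het and 119 KO macrophages, 79 WT, 58 Het and 78 KO microglia, and 14 cells of a type named only 7. Cells that shared both genotype and plate form a pool, and each cell type had 8 pools, on plates 059s, 529s and 530s for WT, 056s, 524s and 529s for Het, and 060s and 524s for KO.

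Animals are not named in the labels, so each genotype of a cell type counts as a single sample, and differences between genotypes are described without a test. The pools show how far values moved between plates of the same genotype, which could also differ in sex, as given further on. Depth without ribosomal Rn18s ran from 1488 to 2107020 counts per cell. Its median was 225315 in WT, 285909 in Het and 124693 in KO macrophages, so fewer reads stood behind the median KO cell. Depth also differed between pools of a genotype. The lowest median was 109021 in Het 529s, followed by 116105 in KO 060s. KO 524s, at 171764, lay above WT 529s at 156646 and Het 524s at 142690. Notch3 itself could not check the labels, with 77 counts in 1 WT macrophage, 0 in Het macrophages, 2 in 1 KO macrophage and 1 count in each genotype of microglia. Perivascular macrophage markers summed to 30060 to 40444 CPM (counts scaled to the same total in every group) in the pools of macrophages, and to 9994 to 19020 CPM in those of microglia. Microglia markers summed to 3901 to 11349 CPM and 30896 to 59469 CPM in the same order, so the labelled types were told apart by level, and 12 of 12 markers of each reached 5 CPM in the other.

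Short stretches before the start of 8 genes are shown because the letters of the ISRE are what the family is known for. The 8 were picked, with their values known, from the genes that held those letters, so Ifit2 and Cmpk2, where they were not found in the window, and Mx1, which the promoter table did not hold, are absent although values below turn on them. They are RefSeq sequence of build GRCm38.p6, 5′ to 3′ on the gene's own strand, and capitals mark 1 match in each to the ISRE core, which is GAAA, 2 bases of any kind and GAAA again, or its reverse complement, TTTC, 2 bases and TTTC. Ifit1, Ifit3, Ifit3b, Rsad2 and Oas3 had much of their signal in a few macrophages, Bst2 was spread over nearly all cells, Slfn5 was the gene apart in KO macrophages, and Isg15 was hardly counted.
Ifit1, chr19:34640789-34640828: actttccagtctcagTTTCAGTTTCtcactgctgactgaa
Ifit3, chr19:34583392-34583431: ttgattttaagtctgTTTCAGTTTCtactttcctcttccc
Ifit3b, chr19:34607788-34607827: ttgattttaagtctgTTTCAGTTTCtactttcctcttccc
Rsad2, chr12:26456548-26456587: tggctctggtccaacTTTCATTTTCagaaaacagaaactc
Oas3, chr5:120777710-120777749: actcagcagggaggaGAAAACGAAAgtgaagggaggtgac
Bst2, chr8:71537572-71537611: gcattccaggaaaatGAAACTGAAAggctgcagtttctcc
Slfn5, chr11:82951932-82951971: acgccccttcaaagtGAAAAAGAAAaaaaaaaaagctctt
Isg15, chr4:156200866-156200905: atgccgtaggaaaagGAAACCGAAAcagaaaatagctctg
The stretches of Ifit3 and Ifit3b were identical, as these genes are near copies. In Isg15 and Bst2 further matches overlap the marked one and are left in lower case.

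The promoter table held 31 of the 40 genes. It did not hold Usp18, Dhx58, Zbp1, Ifi204, Oas2, Mx1, Rtp4, Ifi27l2a and Parp14. In the 250 bases before the start, searched on both strands, 14 of 31 genes (45.2%) had the ISRE core, against 3.46% of the 27025 genes of the table. They were Stat2, Isg15, Ifit1, Ifit3, Ifit3b, Oas1a, Oas3, Rsad2, Bst2, Trim30a, Igtp, Gbp2, Slfn5 and Slfn8. A longer form, the core followed directly by CT, was found in 8 of the 31 (25.8%) and in 0.255% of all genes. The GAS letters, TTC, 3 bases of any kind and GAA, which read alike on both strands, were found in 6 of 31 (19.4%: Irf1, Eif2ak2, Ifit2, Oas1a, Bst2 and Igtp) and in 8.13% of all genes. A match is a run of letters and shows no binding, and its absence covers these letters and this window only.

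Levels are given as counts summed over the cells of a group and divided by the group's total without spike-ins and Rn18s, in CPM. To compare genes with each other, levels were divided by the length of the longest annotated transcript. On that scale Bst2, the tetherin that holds budding virus at the membrane, was the most abundant in macrophages, with a level of 412 CPM per kilobase. Ifitm3, which blocks virus entry from endosomes, followed at 219.8, then Ifi27l2a at 168 and Slfn2 at 164 CPM per kilobase. Irf9, the DNA-binding subunit of the complex it forms with Stat2, stood at 79.0. The lowest levels per length in macrophages were those of Oas3 at 2.88, Isg15 at 2.36 and Ifi44 at 1.67 CPM per kilobase.

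Isg15 codes for a ubiquitin-like protein attached to other proteins, and it is among the strongest interferon-induced genes in many cells. Here it had 207 counts in 47 of 400 macrophages (1.78 CPM) and 43 counts in 12 of 215 microglia (0.59 CPM). That was under the 5 CPM, averaged over genotypes, required for a gene to be called measured. In the macrophage with the highest summed level of the 40 genes, Isg15 stood at 61.7 CPM while Ifit2 stood at 7912 CPM. The similar gene Gm9706 had 172 counts in 3 macrophages. The other 39 genes were measured in both cell types, and the counts below are out of these 39.

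Macrophages stood above microglia for most of the genes. Over all cells, 37 of 39 were higher in macrophages and 14 of them by at least 2-fold, where 52.3% of all measured genes were higher and 6.21% by at least 2-fold. Their median log2 ratio was 0.83, against 0.03 for all measured genes. None was at least 2-fold lower in macrophages (8.72% of all genes). Since the submitters probably assigned cell types from these very counts, this is a description.

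The difference was not carried by all pools alike. Comparing both cell types within each pool, 8 of 39 genes were higher in macrophages in all 8 pools (3.85% of all genes), namely Ifi204, Oas2, Bst2, Ifitm3, Samd9l, Rtp4, Slfn2 and Ifi27l2a, and 18 in at least 7 (10.7% of all genes). The median log2 ratio was 1.73 in the Het 529s pool and 1.46 in the KO 060s pool. It was 0.31 in the Het 524s pool, and it was 0.12 in the WT 530s pool, where the median of all genes was 0.22. Cmpk2 had the largest ratio over all cells (log2 2.64), at 47.2 CPM in macrophages against 6.74 CPM in microglia, and was higher in 6 of 8 pools. Mx1 was higher in macrophages over all cells (log2 1.36) but in 3 of 8 pools. Irf1, a transcription factor also induced by interferon gamma, did not follow (log2 -0.12, 4 of 8 pools), and neither did Ifi44 (-0.44, 4 of 8). Ifi35 (0.13) was higher in macrophages in 2 of 8 pools, the fewest of the genes, and Gbp2 (0.04) in 5 of 8.

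**Figure D1:**
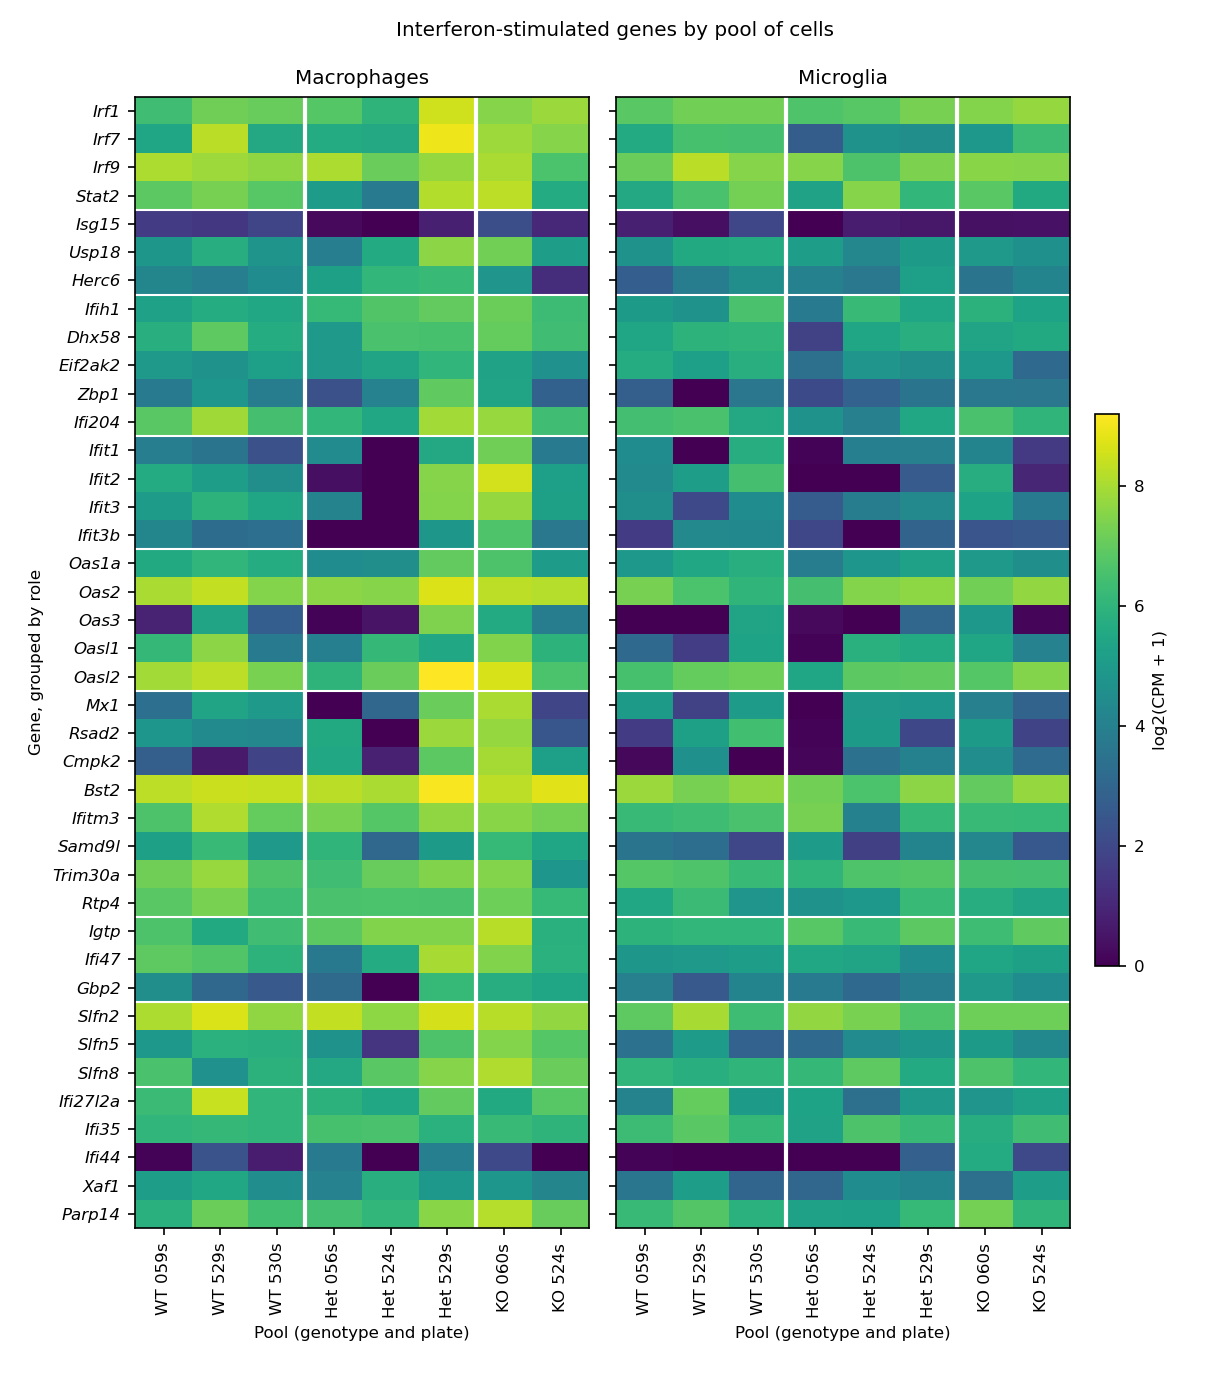
Level of each gene (rows, grouped by role and separated by thin white lines) in the 8 pools of each cell type (columns, with white lines between genotypes), as log2(CPM + 1) by colour. In macrophages the KO 060s and Het 529s columns are the brightest for most Ifit, Oas and Mx1 rows, while Bst2, Irf9 and Slfn2 are similar in all columns and Isg15 is dark in all.

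In macrophages, 20 of 39 genes were at least 2-fold higher in KO than in WT (5.76% of all measured genes), and none was 2-fold lower (9.42%). Against Het, 22 were at least 2-fold higher (13.9%) and 1, Ifi44, was at least 2-fold lower (13.7%). Ifi44 reached the floor of 5 CPM through Het, at 0.74 CPM in WT, 12.3 in Het and 2.31 in KO. Median log2 ratios were 1.00 over WT and 1.40 over Het, with all measured genes at -0.09 and -0.03. Both comparisons use the same KO cells. As counts were summed, plate 056s weighed most in the Het level. Its 35 Het macrophages had a median of 891311 counts, against 142690 in 16 on 524s and 109021 in 19 on 529s. Oas3, for example, was at 11.7 CPM in Het but at 169 CPM in the Het 529s pool. Plate 056s also weighed most in Het microglia. In the KO macrophage level plate 060s weighed most, with 98 cells at a median of 116105 counts. Plate 524s gave 21 KO macrophages at a median of 171764 counts. Against both controls together, 18 genes were at least 2-fold higher in KO (2.85% of all genes): Irf7, Stat2, Usp18, Dhx58, Zbp1, Ifit1, Ifit2, Ifit3, Ifit3b, Oas3, Oasl1, Mx1, Rsad2, Cmpk2, Gbp2, Slfn5, Slfn8 and Parp14. Between the control genotypes, 5 genes were at least 2-fold higher in Het than in WT (9.96%) and 6 were lower (14.4%), with a median log2 ratio of -0.05, which became 0.69 without plate 056s.

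Most of that difference lay in 1 of the 2 KO plates. The KO pools also differed in sex as read from Xist and Ddx3y, so plate and sex cannot be told apart between them. KO 060s macrophages had 0.08 CPM of Xist and 67.1 of Ddx3y, and KO 524s macrophages 579 and 0. Among the controls, WT 530s and Het 529s macrophages had high Xist as well, at 738 and 825 CPM. The pool of KO 060s stood above all 6 control pools for 13 of 39 genes (10.0% of all genes), and the pool of KO 524s for 1 of 39 (11.9%) and below all of them for 5 (16.6%). KO 060s lay below all of them for none (5.67%). The highest of the 8 pools was Het 529s for 16 genes, KO 060s for 13 and WT 529s for 7. Without plate 060s the median log2 ratio of KO over WT was 0.07 and that of KO over Het was 0.07. Without the 10% of cells in each pool with the highest summed level it was 0.29 over WT and 0.63 over Het. Leaving out plate 056s, a Het plate, brought the median over Het to 0.26. A level summed over cells does not tell more RNA per cell from more cells with RNA, which is why the cells are described one by one further on.

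**Figure D2:**
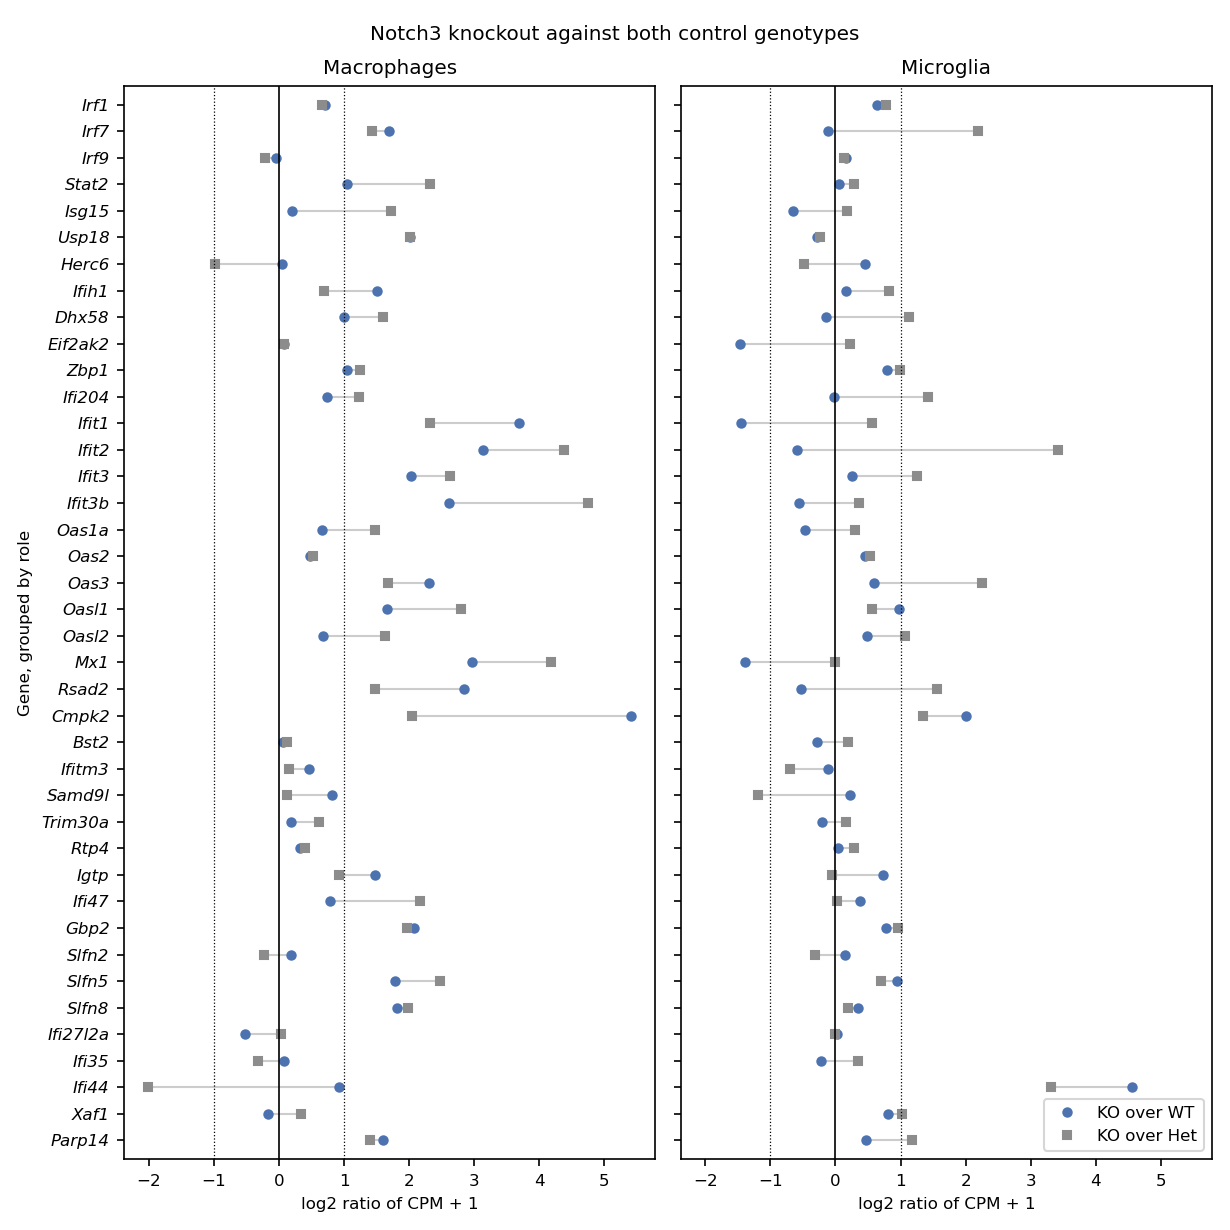
Log2 ratio of the level (CPM + 1) in KO over WT (blue circles) and over Het (grey squares) for each of the 40 genes, with dotted lines at 2-fold. In macrophages Cmpk2, Ifit1, Ifit2, Mx1, Rsad2 and Ifit3b lie farthest right over WT, and Ifit3b, Ifit2 and Mx1 over Het. Bst2, Irf9 and Eif2ak2 lie near 0 there, and in microglia most genes lie within 2-fold over WT.

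Among the transcription factors, Irf7, which raises the genes of type I interferon themselves, had 42.4, 299 and 46.1 CPM in the WT pools (059s, 529s and 530s), 49.3, 46.1 and 495 CPM in the Het pools (056s, 524s and 529s) and 228 and 183 CPM in the KO pools (060s and 524s). Both pools of plate 529s lay above both KO pools. Its log2 ratio was 1.69 over WT and 1.43 over Het. Stat2 had 117, 156 and 112 CPM in WT, 31.9, 13.4 and 283 in Het, and 311 and 49.1 in KO, in the same order of plates. The lower KO pool was under all WT pools, so the genotypes overlapped (log2 ratios 1.05 and 2.32). Irf9 varied least of the group, with 266, 233 and 201 CPM in WT, 266, 138 and 212 in Het, and 262 and 96.6 in KO. Irf1 had 81.8, 146 and 133 CPM in WT, 107, 62.3 and 371 in Het, and 183 and 226 in KO, with both KO pools between the Het 529s pool and the other controls.

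In the Isg15 system, Usp18, the protease that removes Isg15 and dampens the receptor, had 28.5, 52.1 and 26.1 CPM in WT, 14.3, 48.6 and 193 in Het, and 149.8 and 34.7 in KO. The high values were 1 Het pool and 1 KO pool, and the rest lay at or under 52.1 CPM. Its log2 ratio was 2.01 over WT and 2.02 over Het. Herc6, the ligase that attaches Isg15 in mice, ran from 1.30 CPM in the KO 524s pool to 75.1 CPM in the Het 529s pool, with log2 ratios of 0.04 (KO over WT) and -0.98 (KO over Het).

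Among the sensors, Dhx58 (also called LGP2) binds the ends of double-stranded RNA. It had 53.9, 119 and 51.4 CPM in WT, 29.4, 93.5 and 91.1 in Het, and 129 and 82.7 in KO, with log2 ratios of 1.00 and 1.61. Zbp1, which senses nucleic acid in the Z form and can start cell death, had 13.2, 27.5 and 13.9 CPM in WT, 3.92, 15.8 and 124 in Het, and 40.8 and 6.30 in KO. For both genes a control pool lay above a KO pool. Ifi204, a DNA sensor, had 114, 237 and 88.6 CPM in WT, 67.4, 43.3 and 241 in Het, and 219 and 83.1 in KO, again highest on plate 529s. Ifih1 (MDA5), which senses long double-stranded RNA, had log2 ratios of 1.51 (KO over WT) and 0.70 (KO over Het). Eif2ak2 (PKR), a kinase that halts translation, stayed close to 0 in both, at 0.08 and 0.07.

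The Ifit proteins bind foreign RNA that lacks the host's cap marks, and as a group they had the largest ratios, with 4 of 4 at least 2-fold above both controls and median log2 ratios of 2.87 and 3.50. Ifit2 had 49.5, 34.9 and 22.1 CPM in the WT pools, 0.30, 0 and 182 CPM in the Het pools, and 376 and 35.4 CPM in the KO pools. The pool of KO 060s was the highest, and that of KO 524s lay within the WT range. Summed by genotype, Ifit2 was at 32.0 CPM in WT (95% interval 30.6 to 33.5), 12.8 in Het (interval 11.7 to 14.0) and 288 in KO (interval 279.8 to 296). These Poisson intervals cover counting error only, and since reads are PCR copies without molecular identifiers they may be too narrow.

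Ifit1 had 14.1, 10.7 and 3.82 CPM in WT, 20.9, 0 and 45.8 in Het, and 145 and 13.0 in KO. Ifit3 had 32.3, 60.2 and 41.7 in WT, 16.2, 0 and 178 in Het, and 213 and 36.3 in KO. Ifit3b had 17.7, 8.52 and 9.31 in WT, 0, 0 and 27.9 in Het, and 101 and 11.9 in KO. In each of the 3 genes KO 060s was the highest pool, Het 529s came next and KO 524s lay below Het 529s. Ifit3 and Ifit3b share 51.2% of the 50-base words of Ifit3, so counts may have been split between them.

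The Oas proteins make a short oligoadenylate that activates RNase L, and the Oas-like proteins act otherwise. Oas3 had 0.84, 40.4 and 5.77 CPM in WT, 0.06, 0.40 and 169 in Het, and 48.4 and 13.9 in KO, so the highest pool was Het 529s. Oasl1, known to limit translation of Irf7, had 68.8, 191 and 12.6 CPM in WT, 14.8, 69.6 and 44.6 in Het, and 176 and 61.2 in KO, with the highest pool in WT. Oas2, the most abundant of the family per length next to Oasl2, moved least. It had 259, 329.7 and 178 CPM in WT, 195, 185 and 422 in Het, and 309 and 285 in KO (log2 ratios 0.48 and 0.52). Oasl2 had 239.96, 307 and 162 CPM in WT, 62.0, 135 and 579.99 in Het, and 397 and 95.3 in KO, so its KO pools lay on both sides of the WT range. Oas1a, with log2 ratios of 0.67 and 1.48, shares 57.6% of its words with Oas1g, and its counts are uncertain.

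Among the effectors, Mx1, a GTPase that blocks viral polymerases and is known to be defective in many laboratory strains, had 9.28, 40.8 and 29.9 CPM in WT, 0, 7.28 and 137 in Het, and 264 and 2.82 in KO. The KO pools were thus the highest of all and lower than all but 1 control pool. Rsad2 (viperin), which makes a chain-terminating nucleotide, had 27.2, 19.4 and 18.3 CPM in WT, 47.1, 0 and 224 in Het, and 213 and 4.56 in KO. Cmpk2, a mitochondrial nucleotide kinase whose gene lies beside Rsad2, had 5.98, 0.59 and 2.74 CPM in WT, 44.4, 0.81 and 118 in Het, and 251 and 35.6 in KO. All 3 WT pools of Cmpk2 lay below both KO pools, and the Het pools lay on both sides. Without plate 060s the log2 ratio over WT was -2.72 for Mx1 and -2.00 for Rsad2, with the sign changed, and 2.99 for Cmpk2, while over Het it was -1.51, -3.37 and -0.38 for Mx1, Rsad2 and Cmpk2.

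Summed by genotype, the remaining effectors stayed within 2-fold of both controls in KO. Bst2 had 309, 355 and 335 CPM in WT, 300.4, 262 and 557 in Het, and 310.5 and 437 in KO, and summed by genotype it was at 328 (95% interval 324 to 333), 316 (310.1 to 321) and 343 (335 to 352) CPM. Its log2 ratios were 0.06 over WT and 0.12 over Het, the latter becoming -0.30 when Rn18s counts were kept in the totals. Ifitm3 had 97.8, 271 and 129 CPM in WT, 162, 108 and 202 in Het, and 190.03 and 155 in KO. Trim30a, a Trim protein known to restrain Toll-like receptor signalling, had 147, 219 and 97.7 CPM in WT, 81.8, 134 and 173 in Het, and 180.4 and 27.4 in KO. The KO pools of Ifitm3 lay within the control range, and so did KO 060s for Trim30a, while KO 524s for Trim30a lay below every control pool. Samd9l (log2 ratios 0.81 and 0.13) and Rtp4 (0.32 and 0.40) completed the group.

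The GTPases Igtp and Ifi47 act on membranes around intracellular parasites and are typical targets of interferon gamma, as is the guanylate-binding protein Gbp2. Igtp had 98.6, 47.1 and 82.0 CPM in WT, 116, 173 and 175 in Het, and 299 and 55.6 in KO. Gbp2 had 22.6, 7.33 and 5.01 CPM in WT, 8.00, 0 and 69.9 in Het, and 51.6 and 42.3 in KO. Both KO pools of Gbp2 lay above 5 of 6 control pools, and Het 529s lay above them. Ifi47 had log2 ratios of 0.79 over WT and 2.16 over Het. Igtp shares 12.3% of its words with Irgm2, whose exons overlap it on the same strand.

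Slfn5, a nuclear Schlafen protein, was the only 1 of the 39 genes for which KO was at least 2-fold above both controls with both KO pools above all 6 control pools (0.669% of all genes, and 0.836% in the opposite direction). It had 28.9, 57.2 and 54.3 CPM in the WT pools, 24.8, 1.62 and 99.0 CPM in the Het pools, and 181 and 109 CPM in the KO pools. Regardless of size, it was also the only 1 with both KO pools above all controls (2.56% of all genes). The margin was small, since the lower KO pool and the highest control pool differed by less than those 2 KO pools did. Summed by genotype it was at 46.4 CPM in WT (95% interval 44.7 to 48.2), 28.4 in Het (interval 26.8 to 30.1) and 162 in KO (interval 156 to 168). In the KO 524s pool 60.1% of its 501 counts came from 1 of 21 cells, and in the KO 060s pool 12.2% of 2373 counts came from the highest of 98 cells. With each gene's highest cell of each pool left out, and with all cells thinned to 50000 counts, no gene stood apart, and without the 10% of cells of each pool highest in the 40 genes Ifit1 did in place of Slfn5. Leaving out plate 524s or 529s gave 12 and 6 genes apart, all higher in KO and Slfn5 among them each time. Leaving out plate 060s gave 4, of which Slfn5 was higher in KO, and Irf9, Herc6 and Trim30a were lower. Without 524s or 060s the rule rested on 1 KO pool. The share of thinned cells with a count was 32.0% in WT, 31.8% in Het and 48.5% in KO. By pool it was 51.2% in KO 060s and 36.8% in KO 524s, both below WT 529s (53.8%) and Het 529s (52.9%). The other control pools lay at or under the 36.2% of WT 059s. Exons of Slfn5 overlap those of the antisense gene Slfn5os, which had 0, 1 and 1 counts in WT, Het and KO macrophages. Strand use in counting was not given in the sources used here.

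Slfn8 had 93.8, 24.4 and 59.2 CPM in WT, 45.8, 113 and 182 in Het, and 274 and 137 in KO, with 1 Het pool between the KO pools. Slfn2, needed for quiescence of T cells and monocytes, had 268, 405 and 202 CPM in WT, 326, 197 and 389 in Het, and 299 and 206 in KO, which all lay within the control range. Parp14, a mono-ADP-ribosyltransferase, had 56.3, 139.6 and 84.8 CPM in WT, 86.7, 67.2 and 190.1 in Het, and 286 and 134 in KO, where KO 524s lay below the pools of plate 529s. Of the other genes, Ifi27l2a (log2 ratios -0.53 and 0.03), Ifi35 (0.08 and -0.32) and Xaf1 (-0.16 and 0.35), a partner of an apoptosis inhibitor, stayed within 2-fold. Ifi44 had 565 counts in macrophages, 78.1% of them in 1 Het cell of plate 056s.

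Plates 524s and 529s each held 2 genotypes and gave comparisons within a plate. On 524s the KO macrophages were above the Het macrophages for 23 of 39 genes (50.1% of all genes), with a median log2 ratio of 0.50. On 529s the Het macrophages were above the WT macrophages for 28 of 39 (47.9% of all genes), with a median of 0.96. In microglia the same comparisons gave 0.38 with 23 of 39 above (53.0%) and -0.15 with 16 of 39 above (53.3%). In both plates the genotypes also differed in sex as read from Xist and Ddx3y: on 524s the KO macrophages had 579 CPM of Xist and 0 of Ddx3y, and the Het macrophages 0.81 and 53.0 CPM. On 529s the Het macrophages had 825 CPM of Xist and the WT macrophages 1.19, so sex and genotype cannot be told apart within these plates.

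Single cells carried the counts unevenly. The summed level of the 40 genes had a median of 2324 CPM in WT, 2370 in Het and 2844 in KO macrophages, with the highest cell at 13288, 29357 and 63350 CPM. The pool medians were 2113, 4276 and 2124 CPM in WT, 2274, 1877 and 3811 in Het, and 2977 and 2644 in KO. By that measure of the typical cell the highest pools were the 2 of plate 529s, not those of KO. By the sum over cells, the pools were at 3144, 4797 and 2688 CPM in WT, 2626, 2491 and 7181 in Het, and 6932 and 3156 in KO.

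Cells with at least 10000 CPM, that is 1% of their counts, in the 40 genes numbered 11 of 119 in KO macrophages (9.24%, exact binomial 95% interval 4.71 to 15.9%), 8 of 211 in WT (3.79%, 1.65 to 7.33%) and 3 of 70 in Het (4.29%, 0.89 to 12.0%). The intervals overlap and cover counting error only. By pool they were 10 of 98 on KO 060s and 1 of 21 on KO 524s, 3 of 19 on Het 529s, 3 of 26 on WT 529s, 2 of 47 on WT 059s and 3 of 138 on WT 530s. None was found among 35 cells of Het 056s and 16 of Het 524s, which allows shares of up to 8.57% and 18.8%, taken as 3 cells of the total, with exact upper limits of 10.0% and 20.6%. In all macrophages 6 cells lay between 1% and 1.2% and 16 between 0.8% and 1%, so the limit marks a range and not a type. At 2% or more there were 8 macrophages, 7 of KO 060s and 1 of Het 529s.

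**Figure D3:**
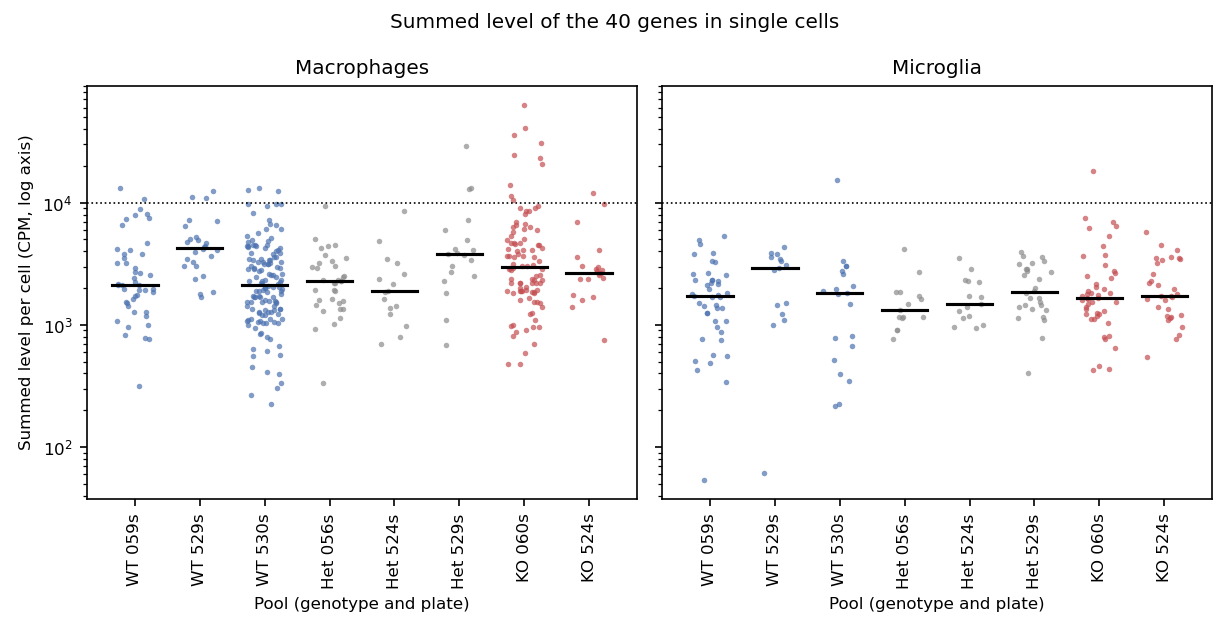
Summed level of the 40 genes in each cell (points, CPM on a log axis) by pool, with black bars at the pool medians and a dotted line at 10000 CPM; blue is WT, grey Het and red KO. The 7 macrophages of KO 060s at 2% of counts or more stand over a pool whose median of 2977 CPM is below those of both 529s pools.

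In the highest macrophage, a KO cell of plate 060s, the genes took 6.34% of all counts and 38 of 40 had a count. Its leading genes were Ifit2 at 7912, Rsad2 at 7498 and Cmpk2 at 5024 CPM. The next cell, with 39 of 40 genes, led with Mx1 at 4680 and Ifit2 at 4575 CPM and had Cmpk2 at 702 and Rsad2 at 459 CPM. The highest Het cell led with Irf7 at 3301 CPM. The high cells thus shared most genes and differed in which were on top. Of the 10 highest macrophages 8 were of KO 060s, 1 of Het 529s and 1 of WT 530s.

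Depth and markers of those 10 cells overlapped those of the other macrophages. They had 119001 to 395365 counts, with a median of 197196 over all macrophages. Perivascular markers summed to 16504 to 55501 CPM (median of all 34465) and microglia markers to 2722 to 13343 CPM (median of all 8497). Lymphocyte markers were at 0 in all 10, and monocyte and neutrophil markers ran from 0 to 33.6 CPM. Dendritic cell markers reached 507 CPM in 1 of them, with a median of 5.36 CPM.

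How far a gene depended on these cells differed within the family. For each gene the 10 macrophages highest in the other 39 were taken, so that the gene did not choose them. For Ifit2 these cells held 1.78% of all macrophage counts. The cells held 67.6% of the counts of Ifit2, 60.5% of Mx1, 58.5% of Cmpk2, 56.2% of Oas3, 53.6% of Ifit3b, 52.5% of Rsad2 and 51.4% of Ifit1. For 16 genes they held under 10%, among them Bst2 (2.70%), Irf9 (2.18%), Slfn2 (4.87%), Ifitm3 (4.98%), Oas2 (5.37%) and Ifi27l2a (0.30%). Stat2 (16.3%), Slfn5 (20.3%), Irf7 (23.3%) and Usp18 (35.4%) lay between. Of the 7 genes with at least 50%, 6 were in the promoter table and 4 had the ISRE core, and of the 16 under 10%, 13 were in the table and 3 had it.

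**Figure D4:**
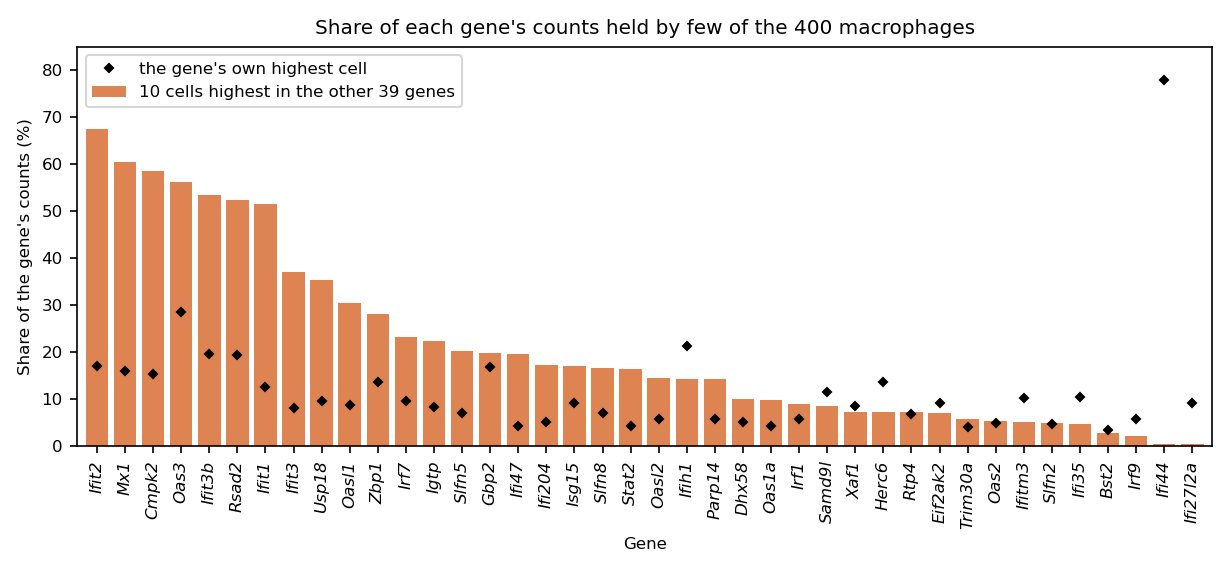
Share of each gene's counts in all 400 macrophages that came from the 10 cells highest in the other 39 genes (bars) and from the gene's own highest cell (diamonds). The bars fall from 67.6% for Ifit2 to 0.30% for Ifi27l2a, and Ifi44 stands out by its own highest cell, with 78.1%.

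The spread of counts over cells told the same groups apart after each cell was thinned to 50000 counts, which left out 5 WT, 4 Het and 16 KO macrophages. Bst2 then had a count in 93.2% of WT, 90.9% of Het and 95.1% of KO macrophages. Ifit2 had one in 9.71%, 6.06% and 19.4%, and Cmpk2 in 2.91%, 9.09% and 16.5%. A macrophage had a median of 10 of the 40 genes, 14 before thinning. Cells with a count of Cmpk2 had a median of 24 of the other genes, those with Ifit2 23.5, and those with Bst2 10.

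How often genes met in the same cells was counted in the largest pool of KO and of WT macrophages, and it depended on the pair and the pool. Of 98 KO macrophages of plate 060s, 21 had Ifit2, 21 had Cmpk2 and 11 had both. Mx1, counted in 32 of these cells, was found together with Ifit2 in 13. Rsad2, counted in 20, met Ifit2 in 9, and Ifit3, counted in 38, met it in 13. Among the 138 WT macrophages of plate 530s, 15 had Ifit2, 11 had Cmpk2 and 1 had both. Macrophages with Mx1 counts numbered 21 of 138 there, and 3 of them had Ifit2. Rsad2, counted in 14, met Ifit2 in 5, and Ifit3, counted in 36, met it in 8. The Spearman rank correlation over cells of Ifit2 with Cmpk2 was 0.51 in KO 060s and -0.02 in WT 530s, and with Mx1 0.46 and 0.09. With Rsad2 it was 0.39 and 0.28, and with Ifit3 0.39 and 0.28, in the same order. Pairs without Ifit2 differed too, as Bst2 with Ifitm3 was at 0.52 and 0.16, and Irf7 with Usp18 at 0.44 and 0.008. Bst2 with Slfn2 was at 0.14 and 0.13, and Bst2 with Ifit2 at 0.06 and 0.20. These pools also differed in median depth, 116105 against 214869 counts, and in sex, with 0.08 against 738 CPM of Xist. The counts of shared cells were not set against a chance level.

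Microglia showed smaller differences. Compared with WT, KO microglia had 2 of 39 genes at least 2-fold higher (6.74% of all genes) and 3 lower (9.49%), with a median log2 ratio of 0.16 against -0.06 for all genes. Compared with Het, 12 were at least 2-fold higher (10.4%) and 1 lower (8.58%), with a median of 0.53, which became 0.13 without plate 056s, 0.18 without plate 060s and 0.96 without plate 529s. Between Het and WT, 2 were at least 2-fold higher (7.53%) and 9 lower (12.3%), with a median of -0.23. No gene stood apart in KO microglia (0.603% of all genes in each direction).

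Against both controls, Cmpk2 and Ifi44 were at least 2-fold higher in KO microglia (2.37% of all genes). Both reached the floor of 5 CPM, a mean over genotypes, through their KO level, so being measured leaned on the group called high. Summed by genotype, Cmpk2 was at 2.82 CPM in WT, 5.02 in Het and 14.4 in KO, and Ifi44 at 0.04, 1.47 and 23.5. Cmpk2 had 0.16, 23.4 and 0 CPM in the WT pools, 0.12, 10.2 and 15.5 in the Het pools, and 22.0 and 8.40 in the KO pools, so the genotypes overlapped. Ifi44 had 1 count in WT, 37 counts in Het and 468 in KO microglia, and its pool of KO 060s was at 49.7 CPM where that of KO 524s was at 3.04 CPM. Its counts lay in 9 of 215 microglia, with 41.7% of them in 1 cell of KO 060s. The highest control pool of Ifi44 was Het 529s at 6.11 CPM. The KO 060s pool stood above all 6 control pools for 7 of 39 genes (12.2% of all genes) and the KO 524s pool for 5 (10.4%). It stood below all of them for 0 genes (5.84%) and KO 524s for 1 (8.42%). Both KO pools lay above all controls for 2 genes (2.64%), Irf1 and Gbp2, each by less than 2-fold over WT and Het.

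Ifit2, Mx1 and Slfn5, for which KO 060s was the highest pool of macrophages, were not highest there in microglia. Ifit3 and Parp14 were highest in KO 060s in both cell types. In KO 060s microglia Ifit3 was at 39.3 CPM, with WT 059s the highest control at 22.7 CPM. Parp14 was at 153 CPM there, with WT 529s the highest control at 106 CPM. Ifit2 was at 52.0 CPM in KO 060s microglia, below the 89.6 CPM of WT 530s, and at 0.98 CPM in KO 524s. Mx1 was at 14.9 and 6.52 CPM in the KO pools, and at 31.5 and 32.6 CPM in WT 059s and WT 530s. Slfn5 was at 30.9 and 18.7 CPM in the KO pools and at 31.8 CPM in WT 529s. Whether genotype acted differently in the 2 cell types was not tested.

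Among the more abundant genes, the highest and lowest pools of microglia differed by more than 2-fold. Irf9 lay between 99.0 and 303 CPM, Bst2 between 96.2 and 227 CPM, Irf1 between 100.6 and 214 CPM, and Slfn2 between 81.0 and 252 CPM. Their KO pools lay inside the range of the control pools, except that the KO 060s and KO 524s pools of Irf1, at 178 and 214 CPM, lay above its highest control pool of 158 CPM. Irf1 stayed under 2-fold, with log2 ratios of 0.64 over WT and 0.77 over Het.

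High cells were few in microglia. The summed level of the 40 genes had a median of 1803 CPM in WT, 1644 in Het and 1716 in KO microglia, and pool sums ran from 1585 to 2550 CPM. Of 215 microglia 2 reached 10000 CPM (0.93%, exact binomial 95% interval 0.11 to 3.32%), 1 KO cell of plate 060s at 18284 CPM and 1 WT cell of plate 530s at 15228 CPM. None lay between 0.8% and 1.2%, and none reached 2%.

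Interferon genes themselves were hardly counted, and receptor genes differed little between genotypes. Of 10 interferon ligand genes in a list of pathway genes, 9 had no count in macrophages and 10 of 10 had none in microglia, and the exception, Ifnk, was at 0.07 CPM in WT macrophages and 0 in the others. The receptor chains of type I interferon were present at similar levels, with Ifnar1 at 288 CPM in WT, 333 in Het and 351 in KO macrophages, and Ifnar2 at 293, 234 and 302 CPM. Ifngr1, a chain of the interferon gamma receptor, was at 815, 1034 and 887 CPM in macrophages and at 1266, 1245 and 1534 CPM in microglia. The kinases Jak1 and Tyk2 had log2 ratios of KO over WT of -0.02 and 0.41 in macrophages.

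Of the 72 measured genes of that pathway list, which holds none of the 40, 14 were at least 2-fold above both controls in KO macrophages and 0 below, with 2.85% and 4.96% of all genes. They were the RNA sensors Ddx58 (RIG-I) and Tlr3 and 12 further interferon-induced genes: Mx2, Oas1g, Oas1b, Ifi203, Irgm1, Iigp1, Tor3a, Parp12, Slfn9, Cd274, Phf11d and Helz2. For all of them but Helz2 the KO 524s pool lay below a control pool. KO 524s and Het 529s were at 14.3 and 59.5 CPM for Mx2, 33.0 and 132 for Parp12, and 161 and 253 for Tor3a. Iigp1 was at 15.5 CPM in WT, 9.07 in Het and 93.3 in KO, but its KO pools were at 125 CPM (060s) and 3.47 CPM (524s), the latter below every WT pool, and Het 529s was at 113 CPM. Irgm1 was at 109.6, 69.3 and 241 CPM, with KO pools at 267 and 167 CPM and Het 524s between them at 216 CPM. Helz2 had no count in WT and was at 29.1 CPM in KO, and its 518 counts lay in 4 of 400 macrophages. Helz2, Slfn9 and Cd274 were under 5 CPM in WT and in Het, so they reached the floor through KO. In microglia 1 of 69 measured genes was at least 2-fold above both, Socs1, the feedback inhibitor of the receptor kinases, at 4.27, 2.55 and 14.1 CPM, and 3 were below (3.45% of all genes), Iigp1, Phf11b and Ddx60. The genotypes overlapped for Socs1, whose KO pools were at 3.09 CPM (060s) and 22.6 CPM (524s) and whose WT 530s pool was at 20.0 CPM, with 462 counts in 15 microglia. Socs1 too was under 5 CPM in WT and in Het.

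The reference annotation places exons of other genes over those of Irf1, Irf9, Usp18, Herc6, Dhx58, Eif2ak2, Oasl1, Rtp4, Igtp, Ifi47, Gbp2, Slfn5, Ifi35 and Parp14. Besides the Ifit3 pair, Oas1a and Igtp, words shared with other genes were 30.2% for Ifi204, 23.8% for Herc6, 15.4% for Slfn8, 13.6% for Rtp4 and 10.0% for Ifitm3. Counts of these genes are uncertain to that extent, since how shared reads were counted was not given in the sources used here.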

How the data were processed

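The deposited table held raw whole-number counts, 1 column per cell, with no normalisation by the authors. The submitters' processing notes name STAR, without a version, while no source used here gives the build, the annotation or the counting program. Column names matched the labels of all 629 cells. ERCC spike-ins (1.22% of counts) and Rn18s, whose share of gene counts (40.4% over all cells) differed widely between plates, were left out of totals. Counts were summed over cells, scaled to CPM, and compared as log2 ratios of CPM + 1. A gene was measured at 5 CPM or more (mean over genotypes or cell types) and called at 2-fold. A gene was apart when, in addition, both KO pools lay beyond all 6 control pools. No test was run. Intervals are exact 95% Poisson or binomial (Clopper-Pearson). The rule was checked on simulated counts.

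All 40 genes are named by role. Pool values are given for the 12 with the highest mean level, for genes apart and for genes at least 2-fold from both controls in KO. Genes and lists were chosen with earlier results of these data known. The counts of pathway genes leave out 1 gene of that list, which is not reported here. Transcripts came from GENCODE M21 and promoters from RefSeq GRCm38.p6, which may not be the authors' build, so coordinates refer to RefSeq only. Alternatives included other totals, edgeR 4.0.16 TMM and DESeq2 1.42.0 size factors, pseudocounts, floors, thinning to 50000 counts, and leaving out plates. Python 3.11.15, pandas 2.3.3, numpy 2.4.6, scipy 1.17.1, matplotlib 3.10.9 and R 4.3.3 were used.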

Additional observations from a re-analysis of the deposited data

Results flagged for a closer look

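The 14 cells of the type named only 7 entered no comparison above. In them the 40 genes summed to 529 CPM in 4 WT cells, 1740 CPM in 4 Het cells and 15566 CPM in 6 KO cells, the last above the level of the WT cells. A single KO cell of plate 524s held 6276 of the 6505 counts, with 37 of the 40 genes and a summed level of 24723 CPM. It led with Oasl2 at 3037 CPM and Ifit2 at 1745 CPM, had 253849 counts in all, and its perivascular macrophage markers summed to 41820 CPM. Its microglia markers summed to 7225 CPM. Its monocyte and neutrophil markers summed to 425 CPM, where macrophages had a median of 12.2 and a highest value of 2016 CPM. The other 5 KO cells of that type summed to 1396 CPM.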

How the results depend on the processing

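The macrophage over microglia median (0.83) ranged from 0.60 to 1.05 over 19 alternatives. In macrophages the KO over WT median (1.00) was 0.29 once the 10% of cells highest in the genes were dropped from each pool, a setting added after results were known, and 0.071 without plate 060s. KO over Het (1.40) was 0.64 with the mean of the cells' own CPM, 0.18 with the mean of the pools, 0.70 with thinned cells, 0.63 without those 10% of cells, 0.26 without plate 056s, 0.070 without 060s and 0.50 on plate 524s alone. Het over WT (-0.05) was 0.69 without 056s and 0.96 on 529s alone. In microglia KO over WT (0.16) was -0.058 with Rn18s in the totals. KO over Het (0.53) was 0.12 with Rn18s, 0.31 with the cells' own CPM, 0.22 with the mean of the pools, 0.28 with a floor of 20 CPM, 0.29 with thinned cells, 0.19 without the 10% of cells, 0.13 without 056s, 0.18 without 060s, 0.73 without 524s and 0.96 without 529s. Het over WT (-0.23) was 0.013 without 056s, -0.60 without 059s and -0.57 without 529s. With Rn18s in the totals the median of all genes moved from -0.03 to -0.46 for KO over Het macrophages.

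Slfn5 was apart in KO macrophages in 18 of 21 settings. It was not apart with thinned cells, without each gene's top cell, or without the 10% of cells highest in the genes. The tally is no measure of strength, since other pseudocounts, floors and fold limits leave the order of the pools as it is. The number of genes apart was 2 with the cells' own CPM, 0 with thinned cells, 0 without each gene's top cell, 4 without plate 060s, 12 without 524s and 6 without 529s. In microglia (0) it was 1 with the cells' own CPM, the mean of the pools, thinned cells, each gene's top cell left out or plate 529s left out, 3 without 524s and 2 at a 1.5-fold limit. Rsad2 without the 10% of cells was at -0.98 over WT and -2.11 over Het, and without plate 060s at -2.00 and -3.37. Without that plate Mx1 was at -2.72 and -1.51, and Cmpk2 over Het at -0.38. The share of genes with the ISRE core (45.2%) was 25.8% with the longer form. The cause of these shifts was not tested. No paired analysis was possible because the groups share no replicate numbers, and each plate with 2 genotypes held 1 pool of each, whose within-plate values are given above. Depth limits the rare genes, as 3 counts were the least told from 0.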
